A study of Mus musculus with 16 samples.

Results

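The genes for the translation initiation factors and the 4E-BPs were followed in sorted naive T cells of wild-type and Tsc1-deficient mice. They were taken as every gene whose symbol begins with Eif in the array's gene table, each read from the probe set for that gene alone with the highest mean over the arrays. This gave 41 genes of 17097, from 90 probe sets, and 5 further Eif probe sets that also name another gene were left out. By role they were 7 genes of the small ribosomal complex and start codon selection, 3 genes of eIF2, 4 of eIF2B, the 4 kinases of eIF2, 10 of eIF3, 3 of the cap-binding eIF4E family, both 4E-BPs on the list, 6 of eIF4A, eIF4G and their cofactors, and 2 of eIF5A and eIF6. Other genes of these complexes, such as Eif4g1, Eif3a, Eif2s1 and Eif4ebp3, were not analysed here.

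The series comprised 16 expression arrays in 6 groups, all on the C57BL/6 background. CD4 T cells, wild-type or Tsc1-deficient, were measured before stimulation (0 h) or 4 h into stimulation through CD3 and CD28 by antibodies bound to the plate. Each of these 4 groups had 3 arrays. CD8 T cells of both genotypes were measured unstimulated, with 2 arrays in each group. How and in which cells Tsc1 was deleted, and the age of the mice, are not given in the sources used here, nor is it said whether arrays of a group came from separate mice. P-values therefore measure only the spread between arrays, which may be technical. The values are RMA signals on the log2 scale, so a difference of 1 is a 2-fold change in signal.

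In cap-dependent translation the ribosomal small subunit, loaded with the initiator tRNA by eIF2 and joined by eIF3, eIF1A and eIF5, is brought to the mRNA cap by eIF4F, which consists of the cap-binding protein eIF4E, the helicase eIF4A and the scaffold eIF4G. The 4E-BPs bind eIF4E and keep eIF4G from it, and the kinase complex mTORC1, which TSC1 restrains together with TSC2, phosphorylates the 4E-BPs and so releases eIF4E. Kinases that phosphorylate eIF2 slow initiation by blocking its recharging by the exchange factor eIF2B, and activation of a naive T cell is known to raise protein synthesis strongly. The arrays measured RNA and say nothing of protein or phosphorylation.

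Tsc1 signals did not overlap between genotypes in any condition. They ran from 7.25 to 7.39 in wild-type and 6.42 to 6.54 in Tsc1-deficient CD4 cells at 0 h, from 7.37 to 7.54 and 6.22 to 6.5 at 4 h, and from 6.88 to 6.99 and 6.36 to 6.41 in CD8 cells. The limma changes were -0.83, -1.06 and -0.55. The 7 T cell markers measured averaged 11.02 to 11.2 on the 0 h arrays of both lineages. At 4 h they averaged 10.05 to 10.26 in wild-type and 9.75 to 10.04 in Tsc1-deficient cells, lower than at 0 h without overlap and with the highest Tsc1-deficient array just under the lowest wild-type one. At 4 h Cd3g, Cd2 and Cd5 were called lower in Tsc1-deficient than wild-type cells, by 0.83, 0.85 and 0.70 (changes -0.83, -0.85 and -0.70), and Thy1 higher by 0.91. In CD4 cells at 0 h Cd8a was called lower by 0.84 (change -0.84), and the CD8 lineage genes averaged 5.84 to 7.96 on the CD4 arrays against 10.7 to 10.9 on the CD8 arrays. The 8 neutrophil markers (all measured) averaged 3.31 to 4.30 in wild-type and 4.46 to 6.35 in Tsc1-deficient CD4 cells at 0 h, 3.21 to 3.69 and 4.58 to 6.08 at 4 h, and 3.44 to 4.43 and 4.65 to 5.68 in CD8 cells. S100a8, S100a9, Ngp and Camp were called higher in the Tsc1-deficient cells at 4 h (3.12, 2.89, 3.03 and 2.48) and Ngp at 0 h (2.64), with the other listed markers not called, and its mean was higher in the Tsc1-deficient arrays of all 3 conditions without overlap. At 4 h the list means of B cell, myeloid and NK cell markers also lay higher in Tsc1-deficient cells without overlap, at 3.99 to 4.19 against 4.34 to 4.65, 3.25 to 3.30 against 3.40 to 3.67 and 3.02 to 3.31 against 3.33 to 3.92. The same held in CD8 cells for the B cell list (4.82 to 5.0 against 5.11 to 5.29) and the NK cell list (4.98 to 5.19 against 5.29 to 5.48) and for the NK cell list in CD4 cells at 0 h. Gzma was called higher in all 3 genotype comparisons (1.2, 1.61 and 1.36) and Cd79b at 0 h in CD4 and CD8 cells (0.63 and 0.99). The other NK cell markers, Ncr1, Klrb1c, Klrk1 and Nkg7, were called in none of the 3. In CD8 cells the Gzma means were 4.72 in wild-type and 6.08 in Tsc1-deficient cells. Those of Nkg7 were 11.35 and 11.47, of Klrk1 3.51 and 3.61, of Klrb1c 3.145 and 3.199 and of Ncr1 2.70 and 2.57. The B cell, myeloid and NK cell lists were lower at 4 h than at 0 h in both genotypes, without overlap, where they stood at 4.56 to 4.82, 4.09 to 4.19 and 3.91 to 4.29 in wild-type cells and at 4.72 to 5.17, 4.15 to 4.49 and 4.39 to 4.62 in Tsc1-deficient cells. The part of these markers in the results below was not tested. Fewer cells of a type and less RNA per cell cannot be told apart in these bulk samples.

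The Gapdh control probe sets for the transcript's 3' and 5' ends, whose difference is a sign of RNA quality, lay furthest apart on 2 arrays. The difference was 0.956 on replicate 1 of the stimulated Tsc1-deficient CD4 cells and 0.642 on replicate 2 of the Tsc1-deficient CD8 cells, against 0.0241 to 0.404 on the other 14. Replicate 1 of the stimulated Tsc1-deficient group lay more than 0.4 from the mean of the other replicates for 9 of the 41 initiation genes, 6 of them below it. The other 11 CD4 arrays did so for 0 to 6 genes. Results that rest on these arrays are given with and without them.

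Of the 41 genes, 38 had signals above the table median of 3.36 on all 16 arrays. Eif4e, Eif2b5 and Eif2s3y lay below it on all 16, with means of 2.59, 2.59 and 1.85, so their levels are poorly measured. Signals of different genes come from different probes and are not compared. Within a group the SD of an initiation gene had a median of 0.085, against 0.114 over all genes.

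Stimulation moved more of these genes than genotype or lineage did, as it did over all genes, and in both directions. In limma, a gene was called where the p adjusted by the Benjamini-Hochberg method over all 17097 genes was under 0.05. In wild-type CD4 cells 13 of the 41 genes were called, 8 higher and 5 lower, a share of 31.7% against 31.9% of all genes (12.8% higher, 19.1% lower). In Tsc1-deficient CD4 cells 21 were called, 11 higher and 10 lower, a share of 51.2% against 35.3% of all genes (13.8% higher, 21.5% lower). Above the table median the shares were 34.2% and 52.6% of the initiation genes, and 54.0% and 58.9% of all such genes. The median change was 0.07 in wild-type and 0.10 in Tsc1-deficient cells, against -0.01 and -0.02 over all genes, and above the table median it was 0.06 and 0.11, against -0.07 and -0.10. Arrays before and after stimulation did not overlap for 23 and 24 of the 41 genes, against 45.3% and 43.4% of all genes.

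The 12 genes called in both genotypes had the same direction in both, 7 higher and 5 lower. All 5 that fell in both, Eif2d, Eif3m, Eif3i, Eif3k and Eif4b, had the larger fall in the Tsc1-deficient cells, while of the 7 that rose in both, 3 had the larger rise there. Eif4ebp2 alone was called in wild-type cells and not in Tsc1-deficient cells, and 9 genes were called in Tsc1-deficient cells and not in wild-type cells. The responses of the genotypes share no arrays, and 32 of the 41 genes changed in the same direction in both. How many of all genes did so, or fell further in Tsc1-deficient cells, was not counted. Neither count can therefore be read as a trait of the initiation genes. For the difference of the responses itself, 0 of the 41 genes were called in limma, against 1.2% of all genes, and 7 had an unadjusted p under 0.05 (Eif2ak2, Eif5, Eif4g3, Eif3e, Eif4ebp2, Eif2d and Eif2a), 17.1% against 11.8% of all genes. Above the table median 7 of 38 initiation genes had such a p, against 1598 of all 9354 genes, so the shares were close.

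**Figure D1:**
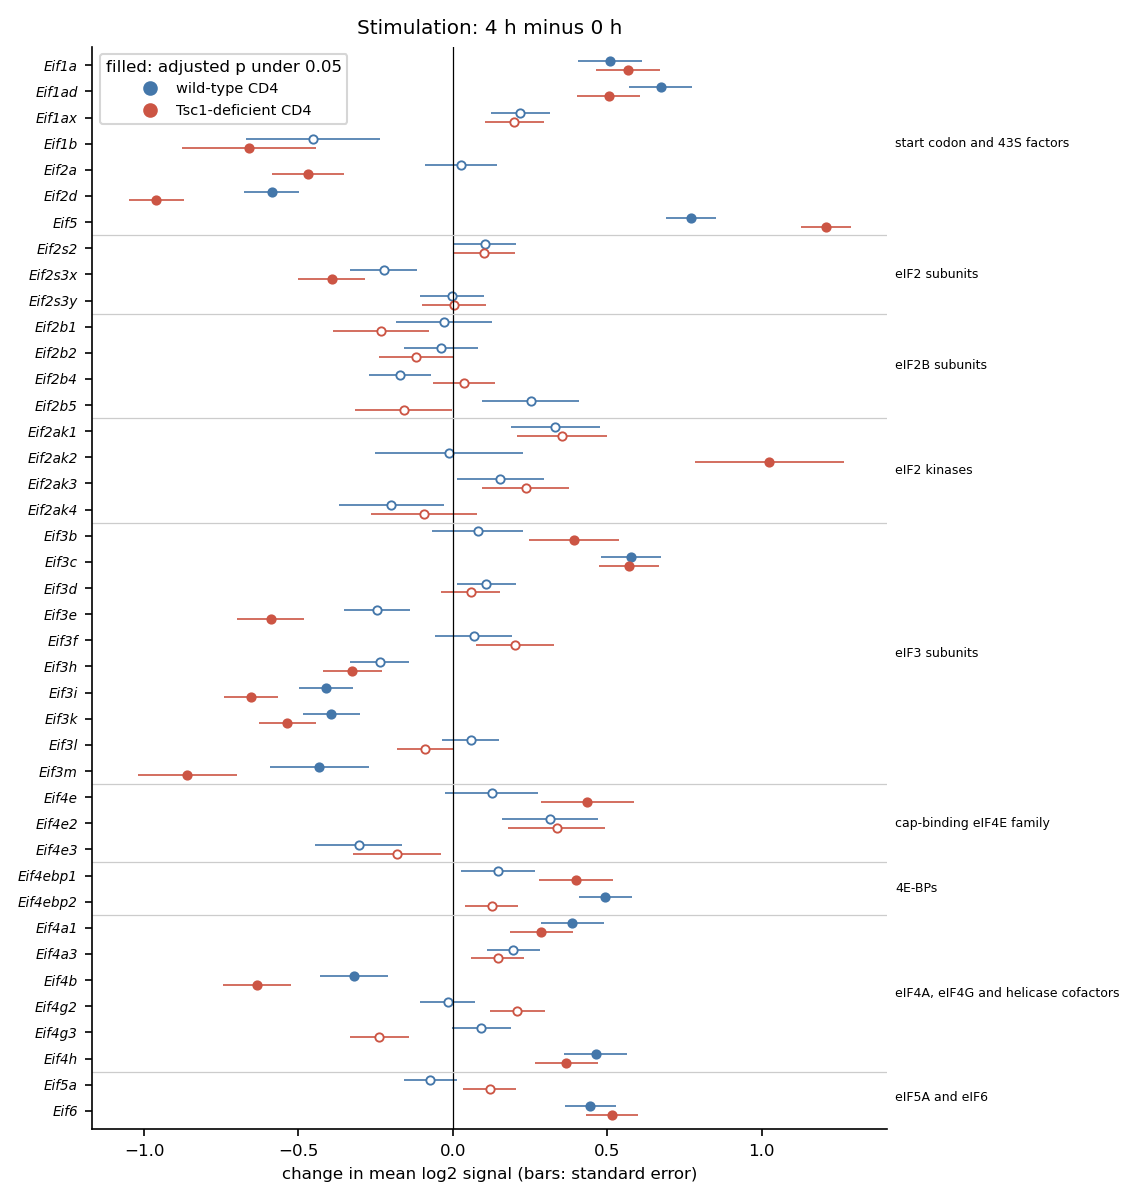
Change in mean log2 signal from 0 h to 4 h for the 41 genes, grouped by role, in wild-type (blue) and Tsc1-deficient (red) CD4 cells; points are differences of means over 3 arrays, bars are the standard error from limma, and filled points have an adjusted p under 0.05. Eif5 has the highest change in both genotypes (0.77 and 1.21) and Eif2d the lowest (-0.59 and -0.96).

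Genotype alone changed fewer of these genes, as it did over all genes. In unstimulated CD4 cells 1 of 41 was called, Eif1ad, a share of 2.44% against 5.83% of all genes (3.96% higher, 1.87% lower). In stimulated CD4 cells 8 were called, 5 higher and 3 lower in the Tsc1-deficient cells, a share of 19.5% against 9.45% of all genes (5.59% higher, 3.86% lower). Above the table median these shares were 18.4% and 16.2%. In unstimulated CD8 cells 4 were called, 3 higher and 1 lower, a share of 9.76% against 5.82% (3.64% higher, 2.18% lower), and above the table median 10.5% against 9.75%. At 0 h in CD4 cells the shares above the median were 2.63% and 9.9%. Of the 11 genes called in any of the 3 conditions, Eif1ad and Eif2b4 were called in more than 1. Median changes over the 41 genes were 0.04, -0.00 and 0.04. The arrays of both genotypes did not overlap for 14 of the 41 genes at 0 h, 15 at 4 h and 20 in CD8 cells, where 28.6%, 23.9% and 46.0% of all genes did not.

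The calls between genotypes rested on few arrays. For the refits below, the share of all genes called is not given here. The counts therefore cannot be read as a trait of the initiation genes. Leaving out 1 array at a time left 0 to 1 calls at 0 h, 2 to 9 at 4 h and 0 to 2 in CD8 cells. The lowest counts at 4 h (2) came without replicate 1 or without replicate 2 of the wild-type group, and the count was 4 without wild-type replicate 3, 4 without Tsc1-deficient replicate 1 and 3 without Tsc1-deficient replicate 2. At 0 h the count was 0 without any 1 of the 3 wild-type arrays or without Tsc1-deficient replicate 1 or 2. In CD8 cells it was 0 without wild-type replicate 1 and 2 without any other 1 array.

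**Figure D2:**
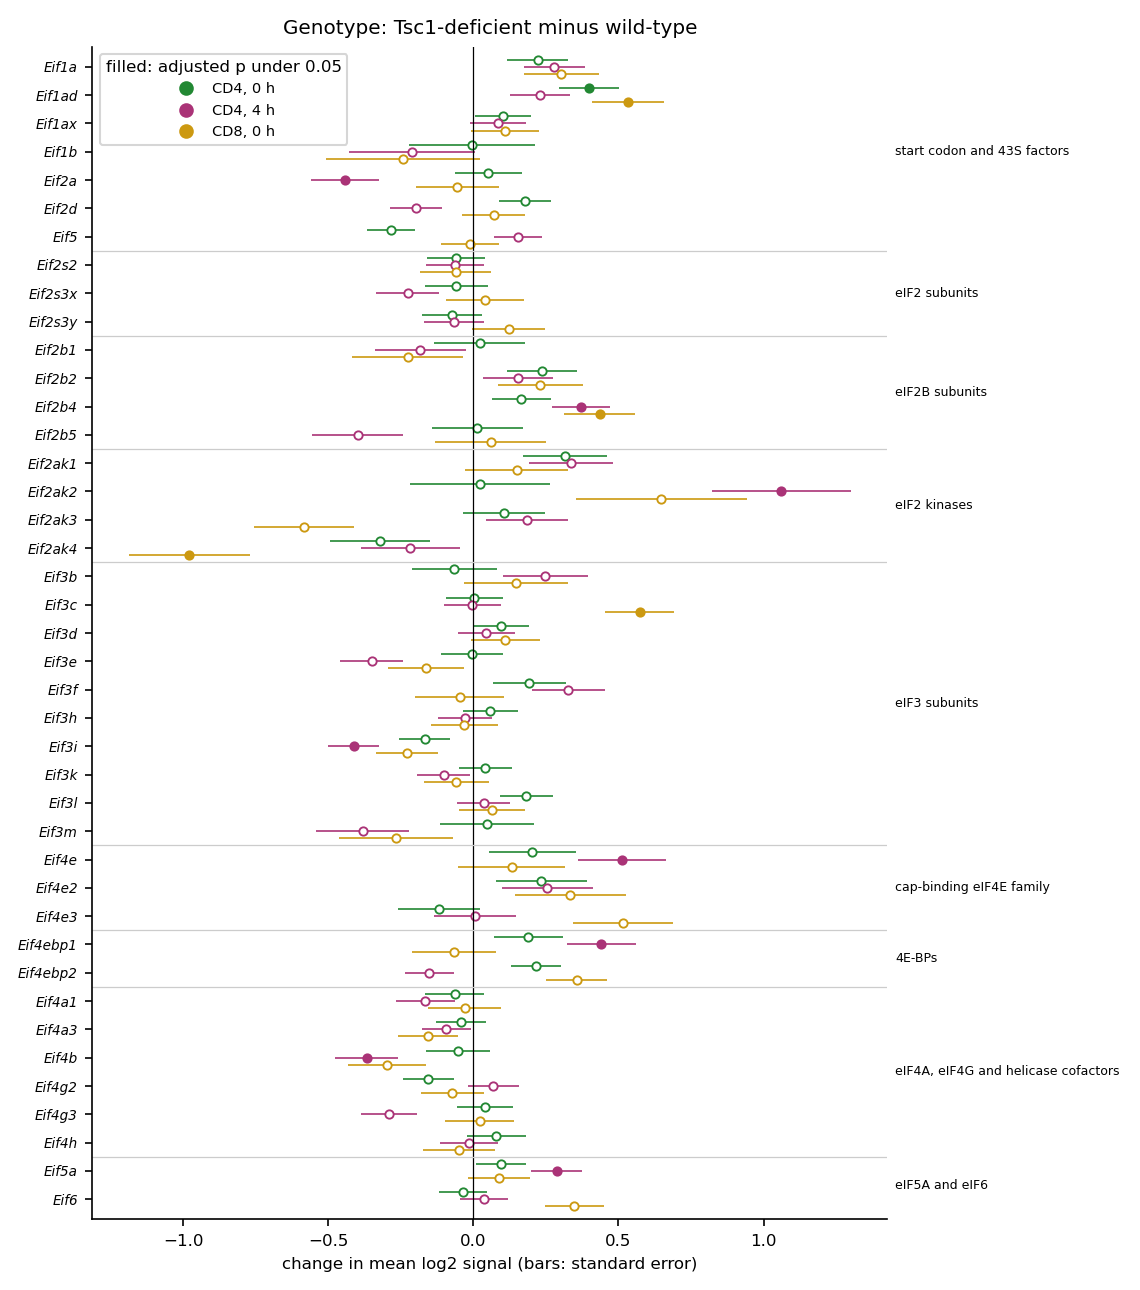
Change in mean log2 signal, Tsc1-deficient minus wild-type, for the 41 genes in CD4 cells at 0 h (green), CD4 cells at 4 h (purple) and CD8 cells at 0 h (ochre); bars are the standard error from limma and filled points have an adjusted p under 0.05. The highest filled point is Eif2ak2 at 4 h (1.06) and the lowest is Eif2ak4 in CD8 cells (-0.98).

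Promoters are shown for 4 genes because the arrays bear on them: Eif4e at the centre of the pathway, Eif4a1 and Eif4h of the helicase, which rose together on stimulation, and Eif2ak2, whose change between genotypes was the largest among the 41 genes. RefSeq windows on build GRCm38.p6, from 250 bases before to 50 after a gene's start, were matched by gene identifier for 33 of the 41 genes. Capitals mark CACGTG, the E-box that Myc and related factors bind, or in Eif2ak2 a match on the opposite strand to the core of the interferon-stimulated response element, which is TTTC, any 2 bases and TTTC. The stretches of Eif4e, Eif4a1 and Eif4h lie before the gene's start and that of Eif2ak2 from 9 to 38 bases after it. Eif4e has 2 E-boxes, at -228 and -64.
Eif4e, chr3:138527018-138527249, plus strand: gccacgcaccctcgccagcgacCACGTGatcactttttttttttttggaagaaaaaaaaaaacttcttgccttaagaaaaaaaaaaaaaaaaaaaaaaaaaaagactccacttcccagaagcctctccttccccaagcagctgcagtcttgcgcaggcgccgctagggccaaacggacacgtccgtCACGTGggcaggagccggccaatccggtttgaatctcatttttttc
Eif4a1, chr11:69672567-69672652, minus strand: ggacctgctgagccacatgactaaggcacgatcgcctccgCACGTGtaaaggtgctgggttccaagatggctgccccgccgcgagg
Eif4h, chr5:134639460-134639545, minus strand: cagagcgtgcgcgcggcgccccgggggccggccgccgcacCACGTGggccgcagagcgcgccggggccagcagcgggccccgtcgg
Eif2ak2, chr17:78882535-78882564, minus strand: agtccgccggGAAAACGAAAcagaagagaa

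CACGTG, searched on both strands, lay in the windows of 7 of the 33 genes, Eif1b, Eif3f, Eif3k, Eif4a1, Eif4e, Eif4h and Eif5a. It was in 9 of their 43 windows (20.9%), since a gene can have several, against 7.15% of all 32851 windows. Of the 7 genes, Eif4a1 and Eif4h were called higher on stimulation in both genotypes, Eif3k was called lower in both, Eif4e was called higher in Tsc1-deficient cells alone and Eif1b lower in those cells alone. Eif3f and Eif5a were not called on stimulation. The response element core, searched on both strands, lay in the windows of Eif2ak2 and Eif2s3x, 4.65% of the 43 windows against 3.44% of all windows. These matches describe letters in the window and not binding.

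Eif4e, which encodes the cap-binding protein, was dim on its probe set, 1444010_PM_at. Its signals at 0 h were 2.21, 2.35 and 2.51 in wild-type and 2.81, 2.38 and 2.49 in Tsc1-deficient CD4 cells, which overlapped. At 4 h they were 2.51, 2.50 and 2.43 in wild-type cells and 2.95, 3.09 and 2.94 in Tsc1-deficient cells. The 3 stimulated Tsc1-deficient arrays lay above every other array of the series, though still under the table median. CD8 signals were 2.21 and 2.80 in wild-type and 2.44 and 2.84 in Tsc1-deficient cells, which overlapped.

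Between genotypes at 4 h Eif4e differed by 0.51 ± 0.15 (SE; limma adjusted p = 0.0413), and stimulation changed it by 0.43 ± 0.15 in Tsc1-deficient cells (adjusted p = 0.0320) and by 0.13 ± 0.15 in wild-type cells (adjusted p = 0.620). Its responses differed by 0.31 ± 0.21 (adjusted p = 0.632). The genotype call was lost without any 1 of the 6 arrays (0.46 to 0.54, adjusted p 0.0612 to 0.124), and the stimulation call without Tsc1-deficient replicate 2 or 3 at 0 h or any 1 of the 3 Tsc1-deficient arrays at 4 h (0.34 to 0.46, adjusted p 0.0503 to 0.143). Since Eif4e has 1 probe set for it alone, no second reading was at hand.

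**Figure D3:**
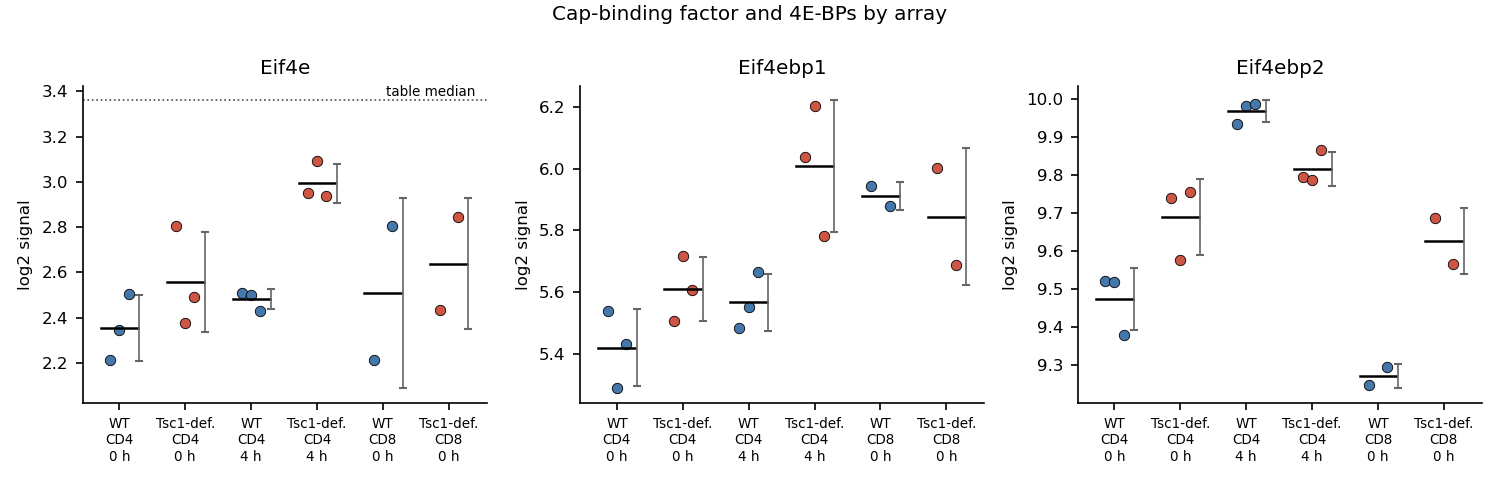
Log2 signal of Eif4e, Eif4ebp1 and Eif4ebp2 on each of the 16 arrays, by group (blue wild-type, red Tsc1-deficient); horizontal lines are group means, grey bars are 1 SD on either side (3 arrays in CD4 groups, 2 in CD8 groups), and the vertical axes do not start at 0. Eif4e and Eif4ebp1 are highest in the stimulated Tsc1-deficient CD4 group by mean, while Eif4ebp2 is highest in the stimulated wild-type CD4 group, where all 3 arrays lie between 9.93 and 9.99.

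Eif4ebp1, the 4E-BP best known as an mTORC1 substrate, was higher in stimulated Tsc1-deficient cells. At 0 h the CD4 signals were 5.54, 5.29 and 5.43 in wild-type and 5.51, 5.72 and 5.61 in Tsc1-deficient cells. At 4 h they were 5.48, 5.55 and 5.67 in wild-type and 6.04, 6.2 and 5.78 in Tsc1-deficient cells. Genotypes overlapped at 0 h and did not at 4 h. Wild-type CD8 cells had 5.94 and 5.88, above all wild-type CD4 arrays, and Tsc1-deficient CD8 cells had 6.0 and 5.69.

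The genotype difference of Eif4ebp1 at 4 h was 0.44 ± 0.12 (1.36-fold; limma adjusted p = 0.0265). Stimulation raised it by 0.40 ± 0.12 in Tsc1-deficient cells (adjusted p = 0.0136), with a change of 0.15 ± 0.12 in wild-type cells (adjusted p = 0.425) and a difference of responses of 0.25 ± 0.17 (adjusted p = 0.618). CD8 exceeded CD4 cells by 0.49 ± 0.13 in the wild type (adjusted p = 0.0423). Its other probe set, much dimmer with a mean of 3.52, changed by 0.05 between genotypes at 4 h.

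Averaging both probe sets, the Eif4ebp1 differences were 0.24 (adjusted p = 0.275) between genotypes at 4 h, 0.31 (adjusted p = 0.0648) on stimulation in Tsc1-deficient cells and 0.22 (adjusted p = 0.494) between lineages, none of them called. The genotype call was also lost without wild-type replicate 1 or 2 or Tsc1-deficient replicate 1 or 2 (0.34 to 0.43, adjusted p 0.0638 to 0.115), the stimulation call without Tsc1-deficient replicate 1 at 0 h or 2 at 4 h (0.30 to 0.35, adjusted p 0.0637 to 0.0807), and the lineage call without any 1 of its 5 arrays (0.43 to 0.55, adjusted p 0.0502 to 0.268).

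Eif4ebp2, the second eIF4E-binding repressor, rose on stimulation in wild-type cells. On its brightest probe set, 1436158_PM_at, the wild-type CD4 signals were 9.52, 9.52 and 9.38 at 0 h and 9.93, 9.98 and 9.99 at 4 h. Those of Tsc1-deficient CD4 cells were 9.74, 9.58 and 9.76 at 0 h and 9.80, 9.79 and 9.87 at 4 h. On this probe set the Tsc1-deficient arrays thus lay above the wild-type ones before stimulation and below them after it, without overlap at either time. In CD8 cells its signals were 9.25 and 9.29 in wild-type and 9.69 and 9.57 in Tsc1-deficient cells, again without overlap. The order at 0 h in CD4 cells was the reverse on 1417084_PM_at, also without overlap. There the wild-type signals were 7.58, 7.62 and 7.48 and the Tsc1-deficient ones 7.42, 7.44 and 7.37. With all 5 probe sets averaged, the genotypes differed by 0.02 at 0 h (limma adjusted p = 0.960).

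The wild-type rise of Eif4ebp2 was 0.49 ± 0.09 (1.41-fold; limma adjusted p = 0.000196), and the change in Tsc1-deficient cells was 0.13 ± 0.09 (adjusted p = 0.310). The responses differed by -0.37 ± 0.12 (unadjusted p = 0.00786, adjusted p = 0.195). Genotype differences were 0.22 ± 0.09 at 0 h (adjusted p = 0.180), -0.15 ± 0.09 at 4 h (adjusted p = 0.345) and 0.36 ± 0.11 in CD8 cells (adjusted p = 0.0584), so on this probe set, with all arrays, genotype did not pass the test in any condition. The CD8 difference on this probe set was called among bright genes alone (adjusted p = 0.0294) and with an intensity trend in the prior (adjusted p = 0.0285). Without the 2 arrays of high Gapdh difference, which leaves a single Tsc1-deficient CD8 array, it was 0.42. On the mean of the gene's probe sets it was smaller, at 0.19 (limma adjusted p = 0.322), and not called.

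The other Eif4ebp2 probe sets gave a larger genotype difference at 4 h. On 1417084_PM_at the stimulated signals were 7.86, 7.81 and 7.90 in wild-type and 7.72, 7.16 and 7.45 in Tsc1-deficient cells, a difference of -0.41 ± 0.12 with an adjusted p of 0.0430 in limma over all probe sets. On 1437733_PM_at they were 5.97, 6.04 and 5.96 against 4.87, 5.27 and 5.35, a difference of -0.83 ± 0.14 (adjusted p = 0.00148). On 1455575_PM_at they were 4.65, 5.08 and 4.73 against 4.02, 4.33 and 3.98, a difference of -0.71 ± 0.16 (adjusted p = 0.0126). Wild-type and Tsc1-deficient arrays did not overlap at 4 h on any of the 5 probe sets.

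The fifth probe set, 1456613_PM_at, was dim (mean 2.45) and differed by -0.31 ± 0.12 (adjusted p = 0.153). The difference of the responses was below 0 on each of the 5, from -0.19 to -0.91, and was not called on any of them alone (adjusted p 0.0928 to 0.773). With the 5 averaged, Eif4ebp2 was lower in stimulated Tsc1-deficient than wild-type cells by 0.48 ± 0.08 (adjusted p = 0.000919), and the response was smaller by 0.50 ± 0.11 (adjusted p = 0.0401). On that average stimulation changed it by 0.37 in wild-type cells (adjusted p = 0.00146) and by -0.13 in Tsc1-deficient cells (adjusted p = 0.238).

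**Figure D4:**
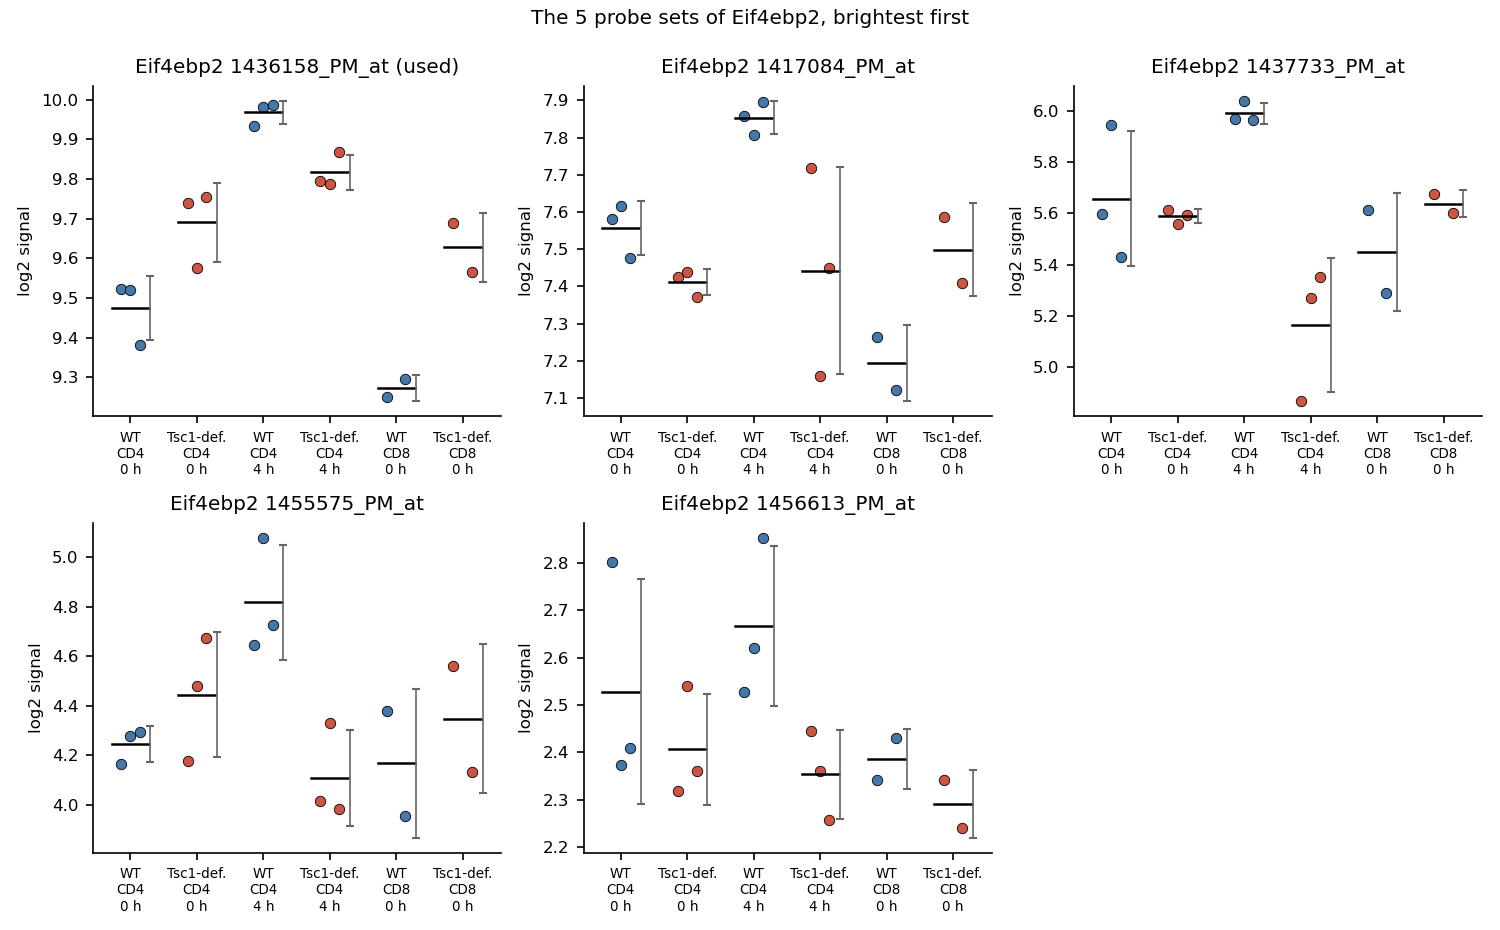
Log2 signal of the 5 Eif4ebp2 probe sets on each of the 16 arrays, brightest first (blue wild-type, red Tsc1-deficient); lines are group means, grey bars are 1 SD on either side, and each vertical axis has its own range. After 4 h the wild-type CD4 arrays lie above the Tsc1-deficient CD4 arrays on every probe set, by mean differences of 0.15 to 0.83.

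Of the other eIF4E homologs, Eif4e2, which competes for the cap and is linked to repression, was called in no comparison on its brightest probe set, with changes of 0.31 ± 0.16 and 0.34 ± 0.16 on stimulation in wild-type and Tsc1-deficient cells. The mean of its probe sets was called higher in both, by 0.30 (limma adjusted p = 0.00769) and 0.34 (adjusted p = 0.00283), and the brightest was called in wild-type cells without the 2 arrays of high Gapdh difference (adjusted p = 0.00813). Eif4e3 had signals of 7.30, 7.30 and 7.43 in wild-type CD4 cells and 6.75 and 6.80 in wild-type CD8 cells at 0 h, which did not overlap. CD8 cells were lower by 0.57 ± 0.16 (limma adjusted p = 0.0478), a call lost without any 1 of the 5 arrays (-0.60 to -0.53, adjusted p 0.0950 to 0.275). Its second probe set fell on stimulation by 0.64 in wild-type and by 0.67 in Tsc1-deficient cells, both called, while the brighter one changed by -0.31 and -0.18, neither called. The mean of both fell by 0.47 and 0.43 (changes -0.47 and -0.43, adjusted p = 0.0254 and 0.0382).

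Among the factors of start codon selection, Eif5, the GTPase activator that triggers release of eIF2 at the start codon, had the largest rise. Its signals in wild-type CD4 cells were 10.78, 10.80 and 10.80 at 0 h and 11.59, 11.55 and 11.57 at 4 h. In Tsc1-deficient CD4 cells they were 10.42, 10.60 and 10.51 and then 11.76, 11.76 and 11.63. The Tsc1-deficient arrays began lower and ended higher, without overlap with the wild type at either time.

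The rise of Eif5 was 0.77 ± 0.08 (1.71-fold; limma adjusted p = 9.96e-07) in wild-type and 1.21 ± 0.08 (2.31-fold; adjusted p = 3.97e-09) in Tsc1-deficient cells. The difference of the responses was 0.44 ± 0.12 (unadjusted p = 0.00162, adjusted p = 0.0864). Of its 4 other probe sets, 3 rose in both genotypes, by 0.34 to 1.05 and by 0.56 to 1.36, and 1 changed by -0.22 and -0.19, not called.

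Eif1a, an eIF1A that aids scanning, and Eif1ad, a protein with an eIF1A-like domain, rose in both genotypes. Eif1a signals in wild-type CD4 cells were 7.89, 7.67 and 7.73 at 0 h and 8.24, 8.35 and 8.22 at 4 h, a rise of 0.51 ± 0.10 (limma adjusted p = 0.000922). In Tsc1-deficient cells they were 7.98, 7.95 and 8.02 and then 8.58, 8.72 and 8.35, a rise of 0.57 ± 0.10 (adjusted p = 0.000293). The times did not overlap in either genotype, and the second Eif1a probe set rose by 0.51 and 0.60.

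Eif1ad was the only initiation gene called between genotypes at 0 h. The wild-type CD4 signals were 6.95, 6.88 and 7.0 and the Tsc1-deficient ones 7.41, 7.38 and 7.23, a difference of 0.40 ± 0.10 (limma adjusted p = 0.0291). In CD8 cells they were 6.99 and 7.18 against 7.78 and 7.46, a difference of 0.53 ± 0.13 (adjusted p = 0.0187). Genotypes overlapped in neither lineage.

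The CD4 call of Eif1ad at 0 h was lost without any 1 of the 3 wild-type arrays or Tsc1-deficient replicate 1 or 2 (0.36 to 0.43, adjusted p 0.0608 to 0.125), and the CD8 call without wild-type replicate 1 or Tsc1-deficient replicate 1 (0.37 to 0.44, adjusted p 0.141 to 0.190). At 4 h Eif1ad stood at 7.53, 7.69 and 7.64 in wild-type and 7.88, 7.90 and 7.75 in Tsc1-deficient cells. All of these lay above the 0 h arrays of their genotype, rises of 0.67 ± 0.10 (limma adjusted p = 5.24e-05) and 0.50 ± 0.10 (adjusted p = 0.000707).

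Eif2d, which can deliver initiator tRNA without eIF2 and also recycles ribosomes, had the largest fall. Wild-type CD4 signals went from 8.21, 8.23 and 8.19 to 7.69, 7.6 and 7.58, a change of -0.59 ± 0.09 (limma adjusted p = 5.09e-05). Tsc1-deficient signals went from 8.40, 8.39 and 8.37 to 7.58, 7.33 and 7.37, a change of -0.96 ± 0.09 (adjusted p = 1.59e-07). The Tsc1-deficient arrays lay above the wild-type ones at 0 h, without overlap, and at 4 h the highest of them (7.58) touched the lowest wild-type array.

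The difference of the Eif2d responses was -0.37 ± 0.13 (adjusted p = 0.204). Leaving out the 2 arrays of high Gapdh difference gave -0.45 ± 0.10 (adjusted p = 0.0456), a call. Another 2 of its probe sets above the table median fell in both genotypes, by 0.77 and 0.30 in wild-type and by 1.07 and 0.69 in Tsc1-deficient cells.

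Eif2a, a separate tRNA-binding factor and not the subunit of eIF2, was lower in stimulated Tsc1-deficient cells. Its signals at 4 h were 7.67, 7.63 and 7.56 in wild-type and 6.84, 7.31 and 7.38 in Tsc1-deficient cells, a difference of -0.44 ± 0.12 (limma adjusted p = 0.0230). The 3 Tsc1-deficient arrays lay below the wild-type ones, with replicate 1, the array with the highest Gapdh difference, lowest. At 0 h the genotypes overlapped, at 7.70, 7.56 and 7.53 and at 7.64, 7.66 and 7.64.

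Stimulation lowered Eif2a in Tsc1-deficient cells by 0.47 (change -0.47 ± 0.12, limma adjusted p = 0.00381), with a change of 0.03 in wild-type cells. With the 2 arrays of high Gapdh difference left out the 4 h genotype change was -0.27 (adjusted p = 0.0450) and the stimulation change -0.30 (adjusted p = 0.00841). The genotype call was lost without wild-type replicate 1 or 2 or Tsc1-deficient replicate 1 alone (-0.44 to -0.27, adjusted p 0.0641 to 0.0793).

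Eif1b, a homolog of the start codon factor eIF1, fell in Tsc1-deficient cells by 0.66 (change -0.66 ± 0.22, limma adjusted p = 0.0238), from 9.36, 9.43 and 9.59 to 8.04, 9.21 and 9.15. Replicate 1 was lowest, and without the 2 arrays of high Gapdh difference the change was -0.28 (adjusted p = 0.0377). The call was lost without Tsc1-deficient replicate 1 at 4 h alone, or replicate 2 or 3 at 0 h (-0.67 to -0.28, adjusted p 0.0506 to 0.0840). In wild-type cells it went from 9.46, 9.44 and 9.49 to 8.86, 9.12 and 9.05, without overlap, a change of -0.45 ± 0.22 (adjusted p = 0.136) that was called once the 2 arrays were out of the fit (adjusted p = 0.000829). Eif1ax, the X-linked eIF1A, was called in no comparison on its brighter probe set, and the mean of both was called higher on stimulation, by 0.33 (adjusted p = 0.00591) and 0.25 (adjusted p = 0.0253).

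Subunits of eIF2 moved little. Eif2s3x, the gamma subunit that binds GTP and the initiator tRNA, fell in Tsc1-deficient cells by 0.39 (change -0.39 ± 0.11, limma adjusted p = 0.00808) and by 0.28 without the 2 arrays of high Gapdh difference (adjusted p = 0.0329). The mean of its probe sets changed by -0.32 (adjusted p = 0.0606), not called. Eif2s2, the beta subunit, was called in no comparison. The Y-linked copy Eif2s3y was called in none either and stayed between 1.73 and 2.05 on every array.

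Of the 4 eIF2B subunits, only Eif2b4, the delta subunit of this exchange factor, was called in any comparison. At 4 h its signals were 7.6, 7.71 and 7.63 in wild-type and 8.21, 8.02 and 7.83 in Tsc1-deficient cells, a difference of 0.37 ± 0.10 (limma adjusted p = 0.0273). In CD8 cells they were 7.87 and 7.79 against 8.22 and 8.30, a difference of 0.43 ± 0.12 (adjusted p = 0.0486). Genotypes overlapped in neither condition, nor in CD4 cells at 0 h, where 7.72, 7.86 and 7.87 stood against 7.91, 7.96 and 8.08 and the difference of 0.17 did not pass the test.

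Neither Eif2b4 difference was called without the 2 arrays of high Gapdh difference (0.27, adjusted p = 0.0788, at 4 h and 0.40, adjusted p = 0.0734, in CD8 cells). Leaving out 1 array ended the 4 h call for any array but Tsc1-deficient replicate 3 (0.27 to 0.40, adjusted p 0.0519 to 0.0974), and the CD8 call for any of its 4 arrays (0.39 to 0.48, adjusted p 0.0874 to 0.216).

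The 4 eIF2 kinase genes changed in different comparisons. Eif2ak2, which encodes the double-stranded RNA sensor PKR and is a known interferon-induced gene, had 5.02, 5.20 and 5.71 in stimulated wild-type and 6.27, 6.19 and 6.66 in stimulated Tsc1-deficient CD4 cells. At 0 h the genotypes overlapped widely, at 5.91, 5.15 and 4.91 and at 5.35, 5.76 and 4.94. The stimulated Tsc1-deficient arrays were thus above every other array of the series. CD8 signals were 5.05 and 4.99 in wild-type and 5.58 and 5.75 in Tsc1-deficient cells, which did not overlap.

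Between genotypes at 4 h Eif2ak2 differed by 1.06 ± 0.24 (2.09-fold; limma adjusted p = 0.00931), the largest genotype difference among the 41 genes, and by 1.11 (adjusted p = 0.0271) without the 2 arrays of high Gapdh difference. The call was lost without wild-type replicate 1 (0.92, adjusted p = 0.0543). Stimulation raised Eif2ak2 by 1.03 ± 0.24 (adjusted p = 0.00240) in Tsc1-deficient cells and changed it by -0.01 ± 0.24 in wild-type cells. The difference of these responses, 1.04 ± 0.34, was not called (adjusted p = 0.191).

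Eif2ak4, which encodes GCN2, the sensor of uncharged tRNA, was lower in Tsc1-deficient CD8 cells. Its signals were 5.27 and 5.36 in wild-type and 4.69 and 3.99 in Tsc1-deficient cells, without overlap, a difference of -0.98 ± 0.21 (limma adjusted p = 0.0102). The lowest value was on replicate 2, one of the 2 arrays of high Gapdh difference. Without both arrays the difference was -0.63 (adjusted p = 0.0695), and without Tsc1-deficient replicate 2 alone, wild-type replicate 1 or wild-type replicate 2 it was not called either (-1.03 to -0.63, adjusted p 0.0686 to 0.127). In CD4 cells the differences of -0.32 at 0 h and -0.22 at 4 h did not pass the test.

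Eif2ak3, which encodes PERK, the kinase of endoplasmic reticulum stress, had 7.13 and 7.08 in wild-type and 6.60 and 6.44 in Tsc1-deficient CD8 cells, again without overlap, but the difference of -0.58 was not called. Tsc1-deficient CD8 cells lay below Tsc1-deficient CD4 cells (7.17, 7.27 and 7.28) by 0.72 (change -0.72 ± 0.16, limma adjusted p = 0.00908), and the change was -0.64 (adjusted p = 0.0177) without the 2 arrays of high Gapdh difference. That call was lost without Tsc1-deficient CD8 replicate 2 alone (-0.64, adjusted p = 0.118), and the mean of its 3 probe sets changed by -0.25 (adjusted p = 0.106). The other 2 are dim, with means of 2.35 and 2.6. Between genotypes in CD4 cells at 4 h Eif2ak3 changed the other way, by 0.19 with all arrays, not called, and by 0.38 without the 2 arrays. Eif2ak1, the heme-regulated kinase, was called in no comparison.

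**Figure D5:**
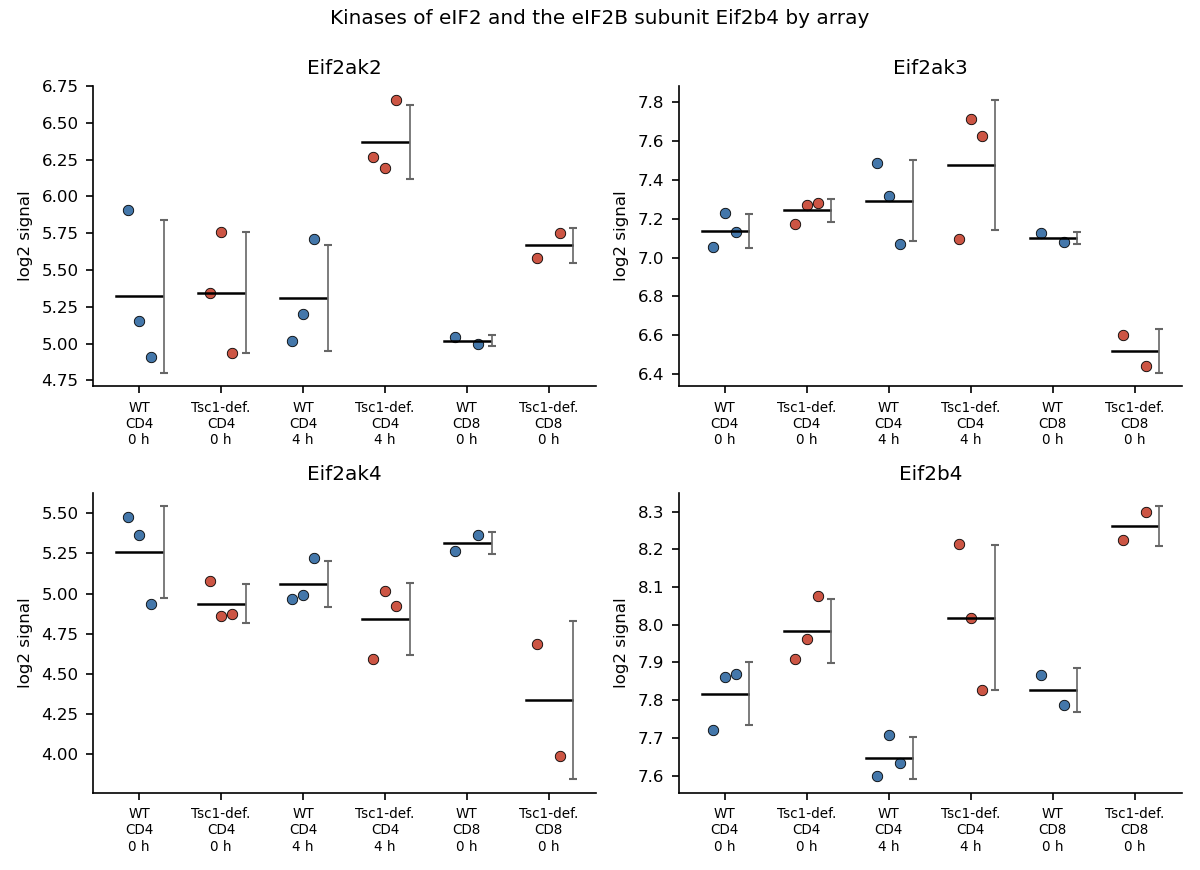
Log2 signal of the eIF2 kinase genes Eif2ak2, Eif2ak3 and Eif2ak4 and of the eIF2B subunit gene Eif2b4 on each of the 16 arrays (blue wild-type, red Tsc1-deficient); lines are group means, grey bars are 1 SD on either side, and axes do not start at 0. Eif2ak2 lies at 6.19 to 6.66 in stimulated Tsc1-deficient CD4 cells and at 5.91 or less on all other arrays, and Eif2ak3 and Eif2ak4 are lowest in Tsc1-deficient CD8 cells.

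Of the 10 subunits of eIF3, the scaffold that joins the small ribosomal subunit to the mRNA, 1 rose and 3 fell on stimulation in wild-type cells. In Tsc1-deficient cells 2 rose and 5 fell. These are 40% and 70% of the subunits, against 31.9% and 35.3% of all genes and 54.0% and 58.9% of genes above the table median. The median changes were -0.09 and -0.21, against -0.01 and -0.02 over all genes and -0.07 and -0.10 over genes above the table median, where all 10 subunits lie. Eif3m, a small subunit of the complex, had 10.27, 10.10 and 10.31 at 0 h and 9.71, 9.91 and 9.76 at 4 h in wild-type cells, and 10.29, 10.28 and 10.24 and then 8.94, 9.72 and 9.57 in Tsc1-deficient cells. The times did not overlap in either genotype.

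The falls of Eif3m were 0.43 and 0.86 (changes -0.43 ± 0.16 and -0.86 ± 0.16, limma adjusted p = 0.04999 and 0.000326). The wild-type call was at the threshold and was lost without any 1 of its 6 arrays (-0.49 to -0.39, adjusted p 0.0560 to 0.143). Both were called without the 2 arrays of high Gapdh difference, with changes of -0.43 (adjusted p = 0.000956) and -0.62 (adjusted p = 0.000111).

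Eif3i also fell in both genotypes and was lower in stimulated Tsc1-deficient cells. Wild-type signals went from 11.59, 11.68 and 11.61 to 11.17, 11.31 and 11.17, a change of -0.41 ± 0.09 (limma adjusted p = 0.00131). Tsc1-deficient signals went from 11.52, 11.46 and 11.39 to 10.74, 10.85 and 10.82, a change of -0.65 ± 0.09 (adjusted p = 1.09e-05). Genotypes did not overlap at either time.

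The genotype difference of Eif3i was -0.41 ± 0.09 at 4 h (limma adjusted p = 0.00613), -0.17 at 0 h and -0.23 in CD8 cells, and only the first was called. No single array ended that call, and it was -0.38 (adjusted p = 0.00910) without the 2 arrays of high Gapdh difference. In a fit of the compared groups alone its adjusted p was 0.0526. The second Eif3i probe set fell on stimulation too, by 0.38 and 0.55.

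Eif3k fell from 11.0045, 10.9 and 10.97 to 10.46, 10.61 and 10.62 in wild-type cells and from 11.10, 10.96 and 10.94 to 10.50, 10.50 and 10.39 in Tsc1-deficient cells. Times did not overlap, and the changes were -0.39 ± 0.09 (limma adjusted p = 0.00264) and -0.54 ± 0.09 (adjusted p = 0.000140). Eif3e, once known as Int6, fell in Tsc1-deficient cells from 12.34, 12.32 and 12.32 to 11.51, 11.81 and 11.89, a change of -0.59 ± 0.11 (adjusted p = 0.000268) and of -0.48 without the 2 arrays of high Gapdh difference.

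Eif3h fell in Tsc1-deficient cells by 0.32 (adjusted p = 0.0112), a call lost without replicate 2 or 3 at 4 h (-0.28 to -0.27, adjusted p 0.0503 to 0.0589). Eif3b, the RNA-binding core subunit, rose there by 0.39 (adjusted p = 0.0462), but its arrays overlapped, since 9.25 on replicate 1 stood beside 8.74 and 8.51. Without the 2 arrays of high Gapdh difference the change of Eif3b was 0.19 (adjusted p = 0.236), and the call was also lost without replicate 1 or 2 at either time (0.19 to 0.44, adjusted p 0.0548 to 0.259). Eif3d and Eif3l were called in no comparison.

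Eif3c rose on stimulation, but its probe sets disagreed. On the one used, wild-type CD4 signals went from 9.80, 10.08 and 9.91 to 10.54, 10.50 and 10.47 and Tsc1-deficient ones from 9.87, 10.01 and 9.92 to 10.45, 10.66 and 10.40, rises of 0.58 ± 0.10 (limma adjusted p = 0.000157) and 0.57 ± 0.10 (adjusted p = 0.000149). In CD8 cells 9.79 and 9.89 in wild-type stood against 10.46 and 10.36 in Tsc1-deficient cells, a difference of 0.57 ± 0.12 (adjusted p = 0.00892). Groups did not overlap in these comparisons. The second probe set, of nearly the same brightness (mean 10.17 against 10.19), changed by 0.19, 0.22 and 0.23 in the same comparisons, with no call.

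The CD8 genotype call of Eif3c was lost without replicate 1 of either genotype (0.52 to 0.53, adjusted p 0.0515 to 0.105). Tsc1-deficient CD8 cells exceeded Tsc1-deficient CD4 cells by 0.48 ± 0.11 (limma adjusted p = 0.0124), a call lost without Tsc1-deficient CD4 replicate 1 or either CD8 array (0.43 to 0.53, adjusted p 0.0501 to 0.0675) and on the mean of both probe sets (0.30, adjusted p = 0.0515).

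Eif3f was lower in Tsc1-deficient CD8 (12.05 and 11.74) than CD4 cells (12.40, 12.47 and 12.48) by 0.55 (change -0.55 ± 0.14, limma adjusted p = 0.0246), without overlap. The second Eif3f probe set changed by 0.08. Without the 2 arrays of high Gapdh difference the change was -0.40 (adjusted p = 0.118). Leaving out 1 array ended the call for CD4 replicate 2 or 3 or CD8 replicate 2 (-0.54 to -0.40, adjusted p 0.0714 to 0.303), and averaging the probe sets gave -0.24 (adjusted p = 0.170).

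In the helicase group, Eif4a1 and Eif4h rose and Eif4b fell. Eif4a1, the main eIF4A helicase, had 11.70, 11.72 and 11.80 at 0 h and 12.08, 12.20 and 12.09 at 4 h in wild-type cells, and 11.65, 11.69 and 11.68 and then 11.76, 12.20 and 11.92 in Tsc1-deficient cells. Times did not overlap, and the changes were 0.39 ± 0.10 (limma adjusted p = 0.00678) and 0.29 ± 0.10 (adjusted p = 0.0376). With its second probe set, which changed by 0.41 and 0.02, averaged in, neither was called (0.40, adjusted p = 0.122, and 0.16, adjusted p = 0.602). The Tsc1-deficient call was also lost without any 1 of the 0 h arrays or replicate 2 or 3 at 4 h (0.17 to 0.30, adjusted p 0.0574 to 0.220).

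Eif4h, which stimulates the helicase, had 10.54, 10.27 and 10.26 at 0 h and 10.84, 10.84 and 10.78 at 4 h in wild-type cells, and 10.56, 10.37 and 10.38 and then 10.74, 10.84 and 10.84 in Tsc1-deficient cells. The stimulated arrays lay above the unstimulated ones in both genotypes, by 0.46 ± 0.10 (limma adjusted p = 0.00161) and 0.37 ± 0.10 (adjusted p = 0.00788). Another 3 of its probe sets rose in both genotypes, by 0.42 to 0.57 and by 0.38 to 0.49, and a dim one changed by 0.10 and 0.18.

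Eif4b, the other helicase cofactor and a substrate of kinases downstream of mTORC1, fell. Wild-type signals went from 10.20, 10.06 and 10.0044 to 9.84, 9.74 and 9.73, a change of -0.32 ± 0.11 (limma adjusted p = 0.0350). Tsc1-deficient signals went from 10.07, 9.999 and 10.05 to 9.15, 9.50 and 9.57, a change of -0.63 ± 0.11 (adjusted p = 0.000162). The stimulated arrays were below the unstimulated ones in both genotypes, and at 4 h the Tsc1-deficient arrays were below the wild-type ones, with replicate 1 lowest.

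That genotype difference of Eif4b was -0.37 ± 0.11 (limma adjusted p = 0.0451) and was lost without the 2 arrays of high Gapdh difference (-0.24, adjusted p = 0.115) and without any 1 array but Tsc1-deficient replicate 3 (-0.42 to -0.24, adjusted p 0.0517 to 0.164). The wild-type stimulation call was lost without replicate 1 or 2 at 0 h or 2 or 3 at 4 h (-0.33 to -0.26, adjusted p 0.0653 to 0.139). The fall in Tsc1-deficient cells was 0.51 (change -0.51, adjusted p = 0.000383) without the 2 arrays.

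Eif4a3, of the exon junction complex, and the scaffold relatives Eif4g2 (also DAP5) and Eif4g3 were called in no comparison on their brightest probe sets. Dimmer probe sets of both scaffold genes rose on stimulation, for Eif4g2 by 0.82 and 1.27 on 1458431_PM_at (mean 6.48) and for Eif4g3 by 1.00 and 0.76 on 1440571_PM_at (mean 5.95), in wild-type and Tsc1-deficient cells, all called. On the brightest probe sets the changes were -0.02 and 0.21 for Eif4g2 and 0.09 and -0.24 for Eif4g3. The mean of the probe sets was called higher for Eif4g2 in both genotypes (0.31, adjusted p = 0.00889, and 0.44, adjusted p = 0.000546) and for Eif4g3 in wild-type cells (0.35, adjusted p = 0.0151). Which transcripts each probe set reads was not tested.

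Eif6, which keeps the large ribosomal subunit from joining early and serves in its assembly, rose. In wild-type cells it went from 8.88, 8.96 and 8.99 to 9.30, 9.51 and 9.36, and in Tsc1-deficient cells from 8.91, 8.90 and 8.93 to 9.48, 9.40 and 9.40. Times did not overlap, and the rises were 0.44 ± 0.08 (limma adjusted p = 0.000383) and 0.52 ± 0.08 (adjusted p = 7.67e-05). The second Eif6 probe set changed by 0.25 and 0.27, with no call. In CD8 cells 8.86 and 8.84 in wild-type stood against 9.2 and 9.19 in Tsc1-deficient cells, without overlap, and the difference of 0.35 ± 0.10 was not called (adjusted p = 0.0552). The mean of both probe sets differed by 0.03 there (limma adjusted p = 0.929), so the second probe set did not show this rise.

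Eif5a, the hypusine-bearing factor that helps ribosomes through difficult stretches, had 11.55, 11.62 and 11.58 in wild-type and 12.02, 11.85 and 11.74 in Tsc1-deficient cells at 4 h, without overlap. The difference was 0.29 ± 0.09 (limma adjusted p = 0.0482). It was lost without the 2 arrays of high Gapdh difference (0.21, adjusted p = 0.108) and without any 1 array but Tsc1-deficient replicate 3 (0.21 to 0.31, adjusted p 0.0806 to 0.146). With each array centred on its median it was 0.27 (adjusted p = 0.0614).

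Unstimulated CD8 and CD4 cells were compared within each genotype. In wild-type cells 2 of 41 were called, 4.88% against 5.04% of all genes (2.47% higher, 2.57% lower), namely Eif4ebp1 (higher in CD8) and Eif4e3 (lower). In Tsc1-deficient cells 3 were called, 7.32% against 6.68% (3.08% higher, 3.6% lower), namely Eif3c (higher), Eif2ak3 and Eif3f (lower). The genotype difference in CD8 minus that in CD4 cells at 0 h was called in limma for 0 of the 41 genes, against 0.117% of all genes (0.0702% higher, 0.0468% lower), and 5 had an unadjusted p under 0.05 (Eif4e3, Eif3c, Eif6, Eif2ak4 and Eif2ak3), 12.2% against 7.77% of all genes. Above the table median 5 of 38 initiation genes had such a p, against 893 of all 9354 genes. Arrays of the lineages did not overlap for 19 and 20 of the 41 genes, against 36.9% and 35.9% of all genes. These lineage comparisons share arrays with the genotype comparisons at 0 h.

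Across the 9 comparisons, with all arrays, 28 of the 41 genes (68.3%) were called at least once, against 45.2% of all genes, and 13 never. These shares are not like for like, since 38 of the 41 genes lie above the table median, where genes are called more often. The share called at least once among all genes above it was not computed. A change past 2-fold was found for Eif5 and Eif2ak2 alone. Those never called on the brightest probe set were Eif1ax, Eif2ak1, Eif2b1, Eif2b2, Eif2b5, Eif2s2, Eif2s3y, Eif3d, Eif3l, Eif4a3, Eif4e2, Eif4g2 and Eif4g3. Without the 2 arrays of high Gapdh difference, 18 genes were called on stimulation in wild-type cells, among them all 13 named above, and 23 in Tsc1-deficient cells, 20 of them shared with the 21, against 36.3% and 37.4% of all genes. Eif2ak1 and Eif4e2 in wild-type cells and Eif4g3 in Tsc1-deficient cells were then called too. At 4 h between genotypes 8 were again called (10.5% of all genes), of which 4 (Eif2ak2, Eif4ebp1, Eif3i and Eif2a) were shared. The other 4 were Eif3f (0.46) and Eif2ak3 (0.38), higher in Tsc1-deficient cells, and Eif4g3 (-0.38) and Eif2d (-0.27), lower. At 0 h and in CD8 cells 3 each were called, against 10.1% and 7.07% of all genes.

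Of the regulators of initiation outside the Eif symbols, 32 of 37 listed were measured. On stimulation 9 were called higher and 7 lower in wild-type and 9 higher and 6 lower in Tsc1-deficient cells. These are 50% and 46.9% of the 32, against 31.9% and 35.3% of all genes. Of all genes above the table median 54.0% and 58.9% were called, and how many of the 32 lie above it was not counted. Among those lower in both, Ppp1r15a changed by -1.84 ± 0.30 in wild-type and -1.20 ± 0.30 in Tsc1-deficient cells (limma adjusted p = 9.57e-05 and 0.00367). Mtif2 changed by -1.12 ± 0.11 and -1.44 ± 0.11 (limma adjusted p = 6.0e-07 and 2.28e-08). Between genotypes 2 were higher at 0 h, 1 was higher and 3 were lower at 4 h, and 1 was lower in CD8 cells, shares of 6.25%, 12.5% and 3.12% against 5.83%, 9.45% and 5.82% of all genes. Of all genes above the table median 9.9%, 16.2% and 9.75% were called in these comparisons. Paip1, which links the poly(A)-binding protein to eIF4A, was lower in Tsc1-deficient cells by 0.65 at 4 h (change -0.65 ± 0.13, limma adjusted p = 0.00347) and by 0.84 in CD8 cells (change -0.84 ± 0.16, adjusted p = 0.00392). In CD8 cells without the 2 arrays of high Gapdh difference that change was -0.51 (adjusted p = 0.00971).

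Pdcd4, an inhibitor of eIF4A whose protein is degraded after phosphorylation downstream of mTORC1, fell further in Tsc1-deficient cells. Its signals went from 11.27, 11.48 and 11.57 to 10.63, 10.51 and 10.54 in wild-type cells and from 11.55, 11.53 and 11.54 to 10.04, 9.94 and 10.07 in Tsc1-deficient cells. Genotypes overlapped at 0 h and did not at 4 h. The changes were -0.88 ± 0.09 and -1.52 ± 0.09 (limma adjusted p = 9.79e-07 and 1.28e-09), and their difference of -0.65 ± 0.13 was called (adjusted p = 0.0220), as it was without the 2 arrays (-0.66, adjusted p = 0.0225).

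Mcts1, which works with the DENR protein in a complex related to Eif2d, also fell further in Tsc1-deficient cells. It fell from 9.99, 10.19 and 10.01 to 8.97, 9.09 and 8.98 in wild-type and from 10.55, 10.47 and 10.51 to 8.45, 8.62 and 8.66 in Tsc1-deficient cells, changes of -1.05 ± 0.11 and -1.93 ± 0.11 (limma adjusted p = 1.37e-06 and 9.81e-10). The Tsc1-deficient arrays started above and ended below the wild type, without overlap. The difference of the responses was -0.88 ± 0.16 (adjusted p = 0.0127), and -0.82 (adjusted p = 0.00463) without the 2 arrays. Whether its probes also read the near copy Mcts2 was not tested.

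Of the elongation and termination factors, 23 of 26 listed were measured. Between genotypes 0 were called at 0 h, 1 (Dph1, lower) at 4 h and 0 in CD8 cells. These are 0%, 4.35% and 0% of the 23, against 5.83%, 9.45% and 5.82% of all genes. Of all genes above the table median 9.9%, 16.2% and 9.75% were called. On stimulation 4 rose and 5 fell in wild-type cells and 2 rose and 7 fell in Tsc1-deficient cells, 39.1% in each against 31.9% and 35.3% of all genes and 54.0% and 58.9% of those above the table median. Eef2k, the kinase that inhibits elongation factor 2, fell in both genotypes (limma adjusted p = 7.38e-10 and 2.28e-10), from group means of 5.17 and 5.59 to 2.94 and 3.11. The means at 4 h lay under the table median, so the size of its fall is poorly measured.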

How the data were processed

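RNA of sorted naive T cells was measured on 16 Affymetrix PM arrays. The deposited values are log2 signals, normalized by the authors with RMA in Partek 6.5 per the submitters' processing notes; no source used here names a genome build. Of 45141 probe sets, 28898 name 1 gene in the platform table, and each of 17097 genes was read from its brightest probe set, a choice that can hide transcripts read by others. Signals have no counts behind them, so the number of arrays limits precision. Groups follow the labelled genotype, cell type and time. 1 sentence of the labels' treatment text speaks of another knockout, and genotype and titles were followed. Replicate numbers follow sample order and were not used as pairs.

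limma 3.58.1 (R 4.3.3) fitted 1 mean per group on all 16 arrays with 9 contrasts, and Benjamini-Hochberg adjusted p-values were taken over all 17097 genes, with calls under 0.05. Standard errors are limma's. The script was tested on simulated data. Values on every array were given for Eif4e, Eif4ebp1 and Eif4ebp2 and, in each comparison, for called members above the table median whose arrays did not overlap, up to the 8 largest in each direction. Of the lists outside the Eif symbols only some of the called genes were named. The genes and lists were chosen with earlier results of these data known. Alternatives left out arrays or dim genes, fitted the compared groups alone, averaged a gene's probe sets or tested each, and changed the normalization, prior or array weights. Promoters came from RefSeq (GRCm38.p6).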

Additional observations from a re-analysis of the deposited data

Results flagged for a closer look

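Outside the Eif symbols, 2 regulators of initiation passed a test of the difference between the stimulation responses of Tsc1-deficient and wild-type CD4 cells (limma, adjusted over all genes). For Pdcd4, which inhibits the helicase eIF4A, the difference was -0.65 (adjusted p = 0.0220), and for Mcts1, a partner of DENR, it was -0.88 (adjusted p = 0.0127).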

How the results depend on the processing

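Of 52 called changes of the 41 genes, 24 kept their call under every alternative run and 0 reversed. Calls between genotypes at 0 h numbered 1, against 2 with bright genes alone, quantile normalization, an intensity trend or array weights and 3 without the 2 arrays of high Gapdh difference (0 to 1 leaving out 1 array). At 4 h there were 8, against 2 with the compared groups alone and 5 over all probe sets (2 to 9). In CD8 cells there were 4, against 0 with the compared groups alone and 7 with bright genes or a trend (0 to 2). Stimulation called 13 in wild-type cells, against 20 with array weights (11 to 13). The difference of the responses was called for 0 genes, against 1 on averaged probe sets (Eif4ebp2), with bright genes or a trend (Eif5) and without the 2 arrays (Eif2d). Between lineages 2 wild-type calls became 0 on averaged or all probe sets, 1 with centring, quantile normalization or a trend and 4 without the 2 arrays (0 to 0), and the 3 Tsc1-deficient calls became 0 on averaged probe sets (0 to 3). The share of all genes called is not given beside these counts. The shifts therefore cannot be read as a trait of the initiation genes, and their cause was not tested.

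Uncalled values turned sign. Eif4e between genotypes in CD8 cells was -0.0731 without the 2 arrays (-0.17 to 0.43 leaving out 1 array) and Eif4ebp1 was 0.0900 (-0.22 to 0.0900). Eif4ebp2 on stimulation of Tsc1-deficient cells was -0.13 on averaged probe sets. Eif4e between lineages was -0.14 to 0.45 in wild-type and -0.12 to 0.29 in Tsc1-deficient cells leaving out 1 array, -0.12 in the latter without the 2 arrays, and -0.37 to 0.23 for the difference of genotype effects.

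Whether adjacent title numbers mark shared mice or days is not known. Correlations of deviations between such arrays were 0.0301 to 0.0769, which is small but cannot settle this. With adjacent numbers as a replicate block the counts in CD4 cells were again 1, 8, 13, 21 and 0.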
